A study of Mus musculus with 18 samples.

Results

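The aminoacyl-tRNA synthetases attach each amino acid to its transfer RNA (tRNA), the step that supplies the ribosome with charged tRNA. Their genes were taken from the deposited table by name: 1 capital letter for the amino acid followed by ars, ars1 or ars2, plus Farsa, Farsb and Eprs. This rule found 37 genes of 15698 named genes, 20 for cytosolic enzymes and 17, with names ending in 2, for mitochondrial ones. In mammals, Kars and Gars each encode both a cytosolic and a mitochondrial form, Eprs encodes 1 protein that charges glutamate and proline tRNA, and Farsa and Farsb encode the 2 subunits of the phenylalanine enzyme. Cytosolic enzymes for arginine, aspartate, glutamine, glutamate with proline, isoleucine, leucine, lysine and methionine are held in the multisynthetase complex on the scaffold proteins Aimp1, Aimp2 and Eef1e1. Activated T cells are known to raise protein synthesis and amino acid uptake before they divide, and several synthetase genes are known targets of ATF4, the transcription factor of the amino acid response.

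The series has 18 libraries of 3′ ends of messenger RNA from mouse cells in 6 groups of 3. P13.9 is a fibroblast line that served as antigen-presenting cell. Activated CD4+ T cells, which carried the transgenic 5CC7 T cell receptor and came from spleen and lymph node, were kept for 4 days with P13.9 cells and the peptide pPCC at 0.01, 0.1, 1.0 or 10 µM. The naive group holds CD4+ T cells of the same tissues, labelled naive, with no peptide or day given. More peptide gives a stronger receptor signal, and the series set these doses side by side. The labels give no age, no sex and no word on whether the 3 libraries of a group are separate animals or cultures, so p-values measure the spread between these libraries, which may be technical.

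Values are normalized counts, made comparable between libraries by the authors. Recovered reads in named genes numbered 156941 to 733009 in the activated libraries and 201627 to 352001 in P13.9, against 27789, 53280 and 97757 in the naive libraries, where 1 read was worth 2.17 to 6.55 normalized counts. Naive replicates correlated with each other at r = 0.640 to 0.773 over genes, the other groups at 0.911 to 0.974. All 10 T cell markers had reads in every activated group and in naive cells, while 8 of 10 had reads in P13.9 and Cd3e and Cd5 had none. The summed level of the 10 markers averaged 287 normalized counts with 0.01 µM, 457 with 0.1 µM, 468 with 1.0 µM and 461 with 10 µM. It was 293 in naive cells and 7.78 in P13.9, and its part in the dose comparisons was not tested. The summed level of 8 myeloid markers averaged 2.53 to 9.95 normalized counts by dose, against 100 ± 22.1 in naive cells, and its part in the comparisons with naive cells was not tested. The P13.9 transcript share, the median level of fibroblast genes relative to P13.9, averaged 31.7% in cells given 0.01 µM. It was 7.64% with 0.1 µM, 4.59% with 1.0 µM and 1.53% with 10 µM, and the same measure gave 4.08% in naive cells. It rests on 4 genes, and a second estimate from 206 genes without a naive read gave 26.1, 9.32, 7.02 and 3.43% from the lowest to the highest dose. The summed level of the 15 fibroblast markers in the table ordered the doses otherwise, at 679, 868, 793 and 555 normalized counts, against 1483 in P13.9 and 202 in naive cells. This marker list is wider than the one behind the share, and how much of the sum the T cells themselves express was not tested. In these bulk samples, fewer cells of a type and less RNA per cell cannot be told apart. Calls are adjusted p-values under 0.05 in limma on log2(value + 1), and edgeR's quasi-likelihood test on the recovered reads stands beside it. On simulated counts with these depths, the log-scale test called unchanged genes of low level higher than naive, and edgeR rarely did. These counts were drawn from the kind of model that edgeR fits, with the same spread for every gene, so they cannot rank the tests for these libraries. In the data, over the mean of the 4 doses, limma called 2495 genes lower than naive and edgeR 1749, with 2108 and 2128 higher. Comparisons with naive cells lead with genes that both tests called.

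ATF4 is known to bind a composite element with the core TGATGNAA, and MYC the E-box CACGTG, so the promoters in which the first occurs are shown. RefSeq windows of GRCm38.p6 from 250 bases before to 50 after the start site were found for 27 of the 37 members. TGATGNAA, read on both strands, occurred in 5 of the 27, Aars, Gars, Iars, Tars and Yars, and in 3.97% of all 32851 windows, of which some genes have several. Only the first window listed for each member was searched, so the member and background rates have unlike bases. Its form TGATGCAA, which overlaps it, occurred in 4 of them and in 0.895% of all windows. The stretches around these matches are given 5′ to 3′ on the gene's strand, with TGATGNAA or its reverse complement and CACGTG in capitals, at chr8:111033676-111033868 (+) for Aars, chr6:55037951-55037998 (+) for Gars, chr13:49682041-49682156 (+) for Iars, chr15:11399632-11399693 (-) for Tars and chr4:129189886-129189929 (+) for Yars. The Aars and Yars windows belong to start sites inside the annotated genes.
Aars: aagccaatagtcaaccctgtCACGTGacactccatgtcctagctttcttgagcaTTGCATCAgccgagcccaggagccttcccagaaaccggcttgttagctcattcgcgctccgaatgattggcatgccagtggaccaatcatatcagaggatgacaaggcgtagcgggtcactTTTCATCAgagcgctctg
Gars: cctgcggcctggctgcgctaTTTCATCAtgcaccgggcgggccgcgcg
Iars: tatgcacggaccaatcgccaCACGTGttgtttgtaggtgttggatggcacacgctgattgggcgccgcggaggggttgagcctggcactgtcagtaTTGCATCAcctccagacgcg
Tars: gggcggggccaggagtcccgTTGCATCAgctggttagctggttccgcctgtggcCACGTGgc
Yars: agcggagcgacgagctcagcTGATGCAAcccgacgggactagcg
CACGTG occurred in 5 of the 27 windows, Aars, Ears2, Farsb, Iars and Tars, and in 7.15% of all windows. The other motifs searched were CCGGAAGT (3 members, 3.89% of all windows), CCATNTTG (3 members, 5.05%), TGANTCA (1 member, 7.81%) and TTCNNNGAA (3 members, 8.3%). A match describes these letters and is no evidence of binding. The 5 genes with the ATF4 core did not share 1 pattern of level: in activated against naive cells Gars, Iars and Aars were called higher by both tests, Yars was called lower on the log scale alone, and Tars was called by neither.

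The first comparison asked which synthetase genes differ between T cells on day 4 and naive T cells. Lysine, valine, phenylalanine (beta subunit), glycine, methionine, alanine, glutamine, leucine and isoleucine enzymes rose in activated cells, with Kars, Vars, Farsb, Gars and Mars1 at the largest log2 changes. Only Eprs and the mitochondrial leucine enzyme Lars2 fell by both tests. Of the 28 members that passed the filter on low values, all 20 cytosolic and 8 mitochondrial ones, 9 rose and 2 fell by both tests, where 24.3% and 23.2% of all 7264 genes did. The log scale called 10 higher and 5 lower, against 29.0% and 34.3% of all genes, and edgeR called 14 (12 higher and 2 lower), against 53.4% of all genes. The median log2 change of the 28 was 0.14 on the log scale, against -0.02 over all genes, and 0.80 in edgeR, against 0.36 over all genes. A change no larger than the gap between the members' medians on the log scale and in edgeR, 0.14 and 0.80, is not taken as settled in direction.

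**Figure D1:**
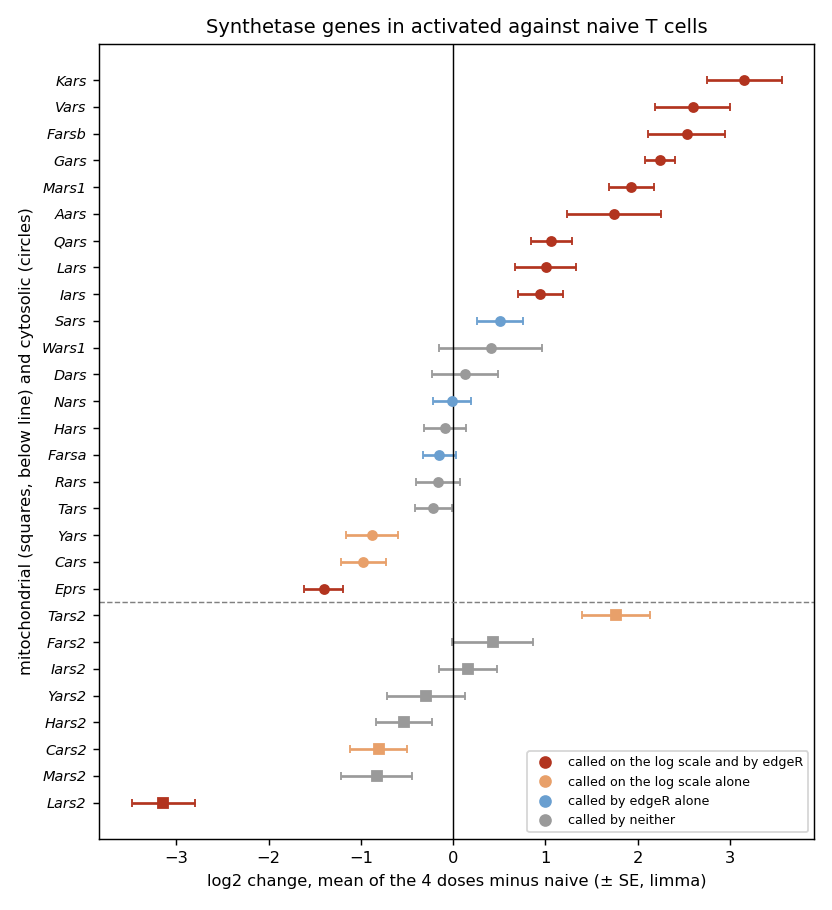
Log2 change of the 28 tested synthetase genes, mean of the 4 doses minus naive CD4 cells (limma on log2(value + 1), bars ± SE, 3 libraries a group), with cytosolic genes as circles above the dashed line and mitochondrial genes as squares below it. The colour gives which test called the gene, and Kars at 3.16 and Lars2 at -3.14 mark the ends of the range.

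Kars, the lysine enzyme of the complex, ranged from 20.1 to 45.2 normalized counts over the 12 activated libraries (median 28.3), against 0, 3.90 and 6.50 in naive cells. The groups did not overlap, and the log2 change was 3.16 ± 0.41 (SE, n = 3 libraries a group; limma adjusted p = 7.55e-06). The naive side rests on 4 reads, and the depth-corrected read ratio was 6.43 with an exact 95% counting interval of 2.51 to 23.6, which covers counting error only.
Gars, the glycine enzyme, had the most reads of the genes that rose by both tests. It ranged from 41.0 to 56.2 in the activated libraries (median 48.5), against 6.55, 11.7 and 10.8 in naive cells. Its groups were far apart and its activated libraries close together, with a log2 change of 2.24 ± 0.16 (limma adjusted p = 1.20e-08) and a read ratio of 4.65 (2.45 to 10.2).
Vars, the valine enzyme, ranged from 7.20 to 23.5 (median 18.8), against 6.55, 0 and 2.17 in naive cells. The lowest activated library lay just above the highest naive one, and the naive side holds 2 reads. The log2 change was 2.59 ± 0.41 (limma adjusted p = 5.35e-05) and the read ratio 6.96 (1.92 to 57.6).
Mars1, the methionine enzyme of the complex, ranged from 12.1 to 29.1 (median 17.1), against 6.55, 3.90 and 2.17 in naive cells. The groups did not overlap. The log2 change was 1.93 ± 0.24 (limma adjusted p = 6.21e-06), and the read ratio, on 3 naive reads, was 5.25 (1.79 to 25.5).

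The 2 subunits of the phenylalanine enzyme differed in their change. Farsb ranged from 12.8 to 26.3 (median 18.3) in activated libraries, against 6.55, 0 and 4.33 in naive cells. All activated libraries lay above the naive ones, with a log2 change of 2.53 ± 0.41 (limma adjusted p = 8.01e-05) and a read ratio of 5.75 (1.96 to 27.9) on 3 naive reads. Farsa ranged from 45.5 to 92.9 (median 65.1), against 65.5, 89.8 and 62.8 in naive cells, and the groups overlapped. Its log2 change was -0.15 ± 0.18 (limma adjusted p = 0.478), while edgeR gave 0.54 (adjusted p = 0.0487), so its direction depends on the scaling. The difference between the subunits was not tested.

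Isoleucine and leucine enzymes of the complex rose less. Iars ranged from 18.4 to 39.7 (median 29.8), against 19.7, 19.5 and 8.66 in naive cells, so 1 activated library overlapped, and the log2 change was 0.94 ± 0.24 (limma adjusted p = 0.00336). Lars rose by 1.00 ± 0.33 (limma adjusted p = 0.0164), with naive values of 19.7, 3.90 and 4.33, and the call was lost without naive 2 or naive 3 (limma adjusted p up to 0.129).
Qars, the glutamine enzyme, rose by 1.06 ± 0.22 (limma adjusted p = 0.000678), with a lowest activated value of 9.97 against a highest naive value of 7.81, and its call was lost with array weights (limma adjusted p = 0.0932). Aars, the alanine enzyme, rose by 1.74 ± 0.51 (limma adjusted p = 0.00781), with naive values of 0, 11.7 and 4.33 that overlapped the activated range of 7.69 to 18.1, and its call was lost without naive 1 or with array weights (limma adjusted p up to 0.131).

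Eprs, the glutamate and proline enzyme of the complex, fell. It ranged from 12.2 to 26.0 (median 19.5) in activated libraries, against 39.3, 42.9 and 84.5 in naive cells, which rest on 56 reads. No activated library reached a naive one, and the log2 change was -1.40 ± 0.21 (limma adjusted p = 3.78e-05; edgeR adjusted p = 0.00109). Eprs was the only member of the complex called lower by either test. Of the 8 complex members, 5 rose and Eprs fell, and Dars (0.13) and Rars (-0.17) were called by neither test.
Yars and Cars, the tyrosine and cysteine enzymes, were called lower on the log scale alone, at -0.88 and -0.97, and edgeR gave -0.17 and -0.33 (adjusted p = 0.736 and 0.535). Sars, the serine enzyme, and Nars, the asparagine enzyme, were called higher by edgeR alone, at 1.28 (adjusted p = 0.00254) and 0.54 (adjusted p = 0.0461), against 0.50 and -0.01 in limma. Hars, Tars, Wars1 and Dars were called by neither test, with limma changes from -0.21 to 0.41.

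**Figure D2:**
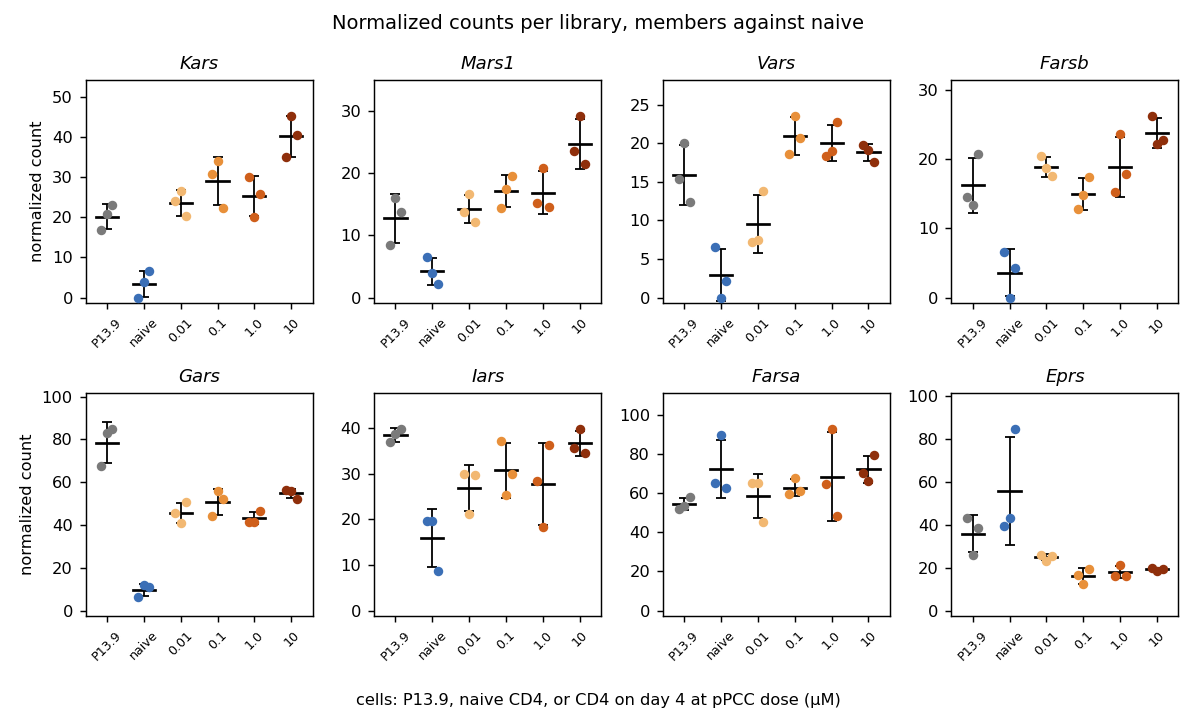
Normalized counts of 8 cytosolic synthetase genes in every library (points), with the group mean and SD as lines (n = 3), for P13.9, naive CD4 cells and CD4 cells on day 4 at each pPCC dose in µM; each panel has its own linear axis. Kars, Mars1, Vars, Farsb and Gars lie above naive at every dose, Farsa overlaps it, and Eprs lies below it.

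Against each dose alone, both tests called 7 members higher at all 4 doses (Aars, Farsb, Gars, Iars, Kars, Mars1 and Vars) and 2 lower (Eprs and Lars2), where 13.2% and 16.4% of all genes were. On the log scale alone the counts were 8 and 3, against 16.0% and 23.9%. The 4 comparisons share the naive libraries. Some single-dose limma calls were lost in alternatives. Aars lost calls at every dose, most at 1.0 µM, under 11 of 15 (limma adjusted p up to 0.287). Iars lost its call under 8 of 16 at 1.0 and at 0.01 µM, both subtractions of the P13.9 share among them. Vars at 0.01 µM lost it with the fibroblast-list share subtracted (limma adjusted p up to 0.124 over its alternatives). Gars, Kars, Mars1 and Lars2 kept theirs at each dose wherever tested. Kars, for example, averaged 23.6 ± 3.22 with 0.01 µM and 29.0 ± 6.01 with 0.1 µM, then 25.3 ± 4.95 with 1.0 µM and 40.2 ± 5.10 with 10 µM, against 3.47 ± 3.27 in naive cells (SD, n = 3 each).

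As a share of the library, the cytosolic members together took 3.80 ± 0.26 reads per 1000 named reads with 0.01 µM, 3.36 ± 0.11 with 0.1 µM, 3.46 ± 0.43 with 1.0 µM and 4.09 ± 0.18 with 10 µM, against 1.98 ± 0.26 in naive cells (SD, n = 3 each). Every activated library lay above every naive one, whose highest value was 2.23. In the authors' scaling the same sum was 452 to 521 normalized counts by dose, against 394 in naive cells, a smaller difference. The 16 mitochondrial members other than Lars2 took 0.37, 0.38, 0.32 and 0.41 reads per 1000 from the lowest to the highest dose, against 0.34 in naive cells, and the libraries overlapped. In the authors' scaling their sum ran the other way, at 46.1, 51.0, 41.8 and 52.4 normalized counts by dose, against 67.4 ± 9.93 in naive cells, so no direction is given. P13.9 had 4.20 ± 0.22 cytosolic and 0.34 mitochondrial reads per 1000.

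**Figure D3:**
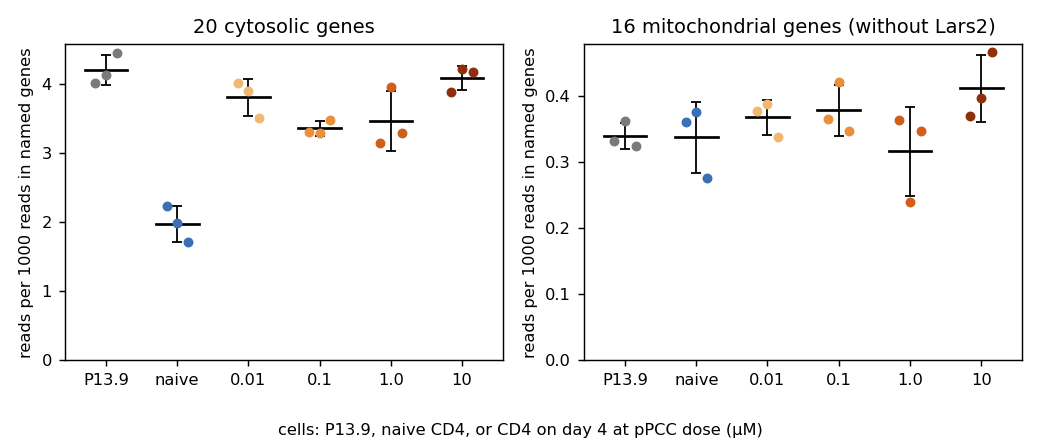
Reads of the cytosolic members (left) and of the mitochondrial members without Lars2 (right) per 1000 reads in named genes, by library (points), with group mean and SD (n = 3). The cytosolic share is 3.15 or more in every activated library and 2.23 or less in every naive one, while the mitochondrial shares overlap.

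Of the 17 mitochondrial members, which charge the tRNAs of the mitochondrial ribosome, 8 passed the filter and 9 did not. These 9 stayed at or below 8.40 normalized counts outside the naive libraries. Wars2, the tryptophan enzyme, was at 0 to 0.84 in the activated libraries, against 0, 27.3 and 2.17 in naive cells, where 7 of its 8 reads came from naive 2, and it was not tested. Pars2, Sars2 and Vars2 had no read in naive cells, where 3 reads would be worth 3.45 normalized counts over the group, above their activated levels, so no fold is given.
Lars2 fell furthest of the 28 tested members. It ranged from 10.7 to 96.7 in the activated libraries (median 29.4), against 242, 336 and 225 in naive cells, and was 36.8, 36.1 and 30.5 in P13.9. No other library came near the naive ones, and the log2 change was -3.14 ± 0.34 (limma adjusted p = 1.28e-06; edgeR -2.46, adjusted p = 2.55e-09). The mitochondrial 16S ribosomal RNA mt-Rnr2 was at 782 to 1917 in the activated libraries, against 13684, 15734 and 13884 in naive cells, and the 12S RNA mt-Rnr1 at 591 to 1205, against 4574, 6133 and 5325. The mitochondrial messenger RNAs were higher in naive cells too. In activated and naive libraries mt-Co1 was at 106 to 193 against 1173, 1093 and 1172, and mt-Nd1 at 728 to 1020 against 3257, 3139 and 3738. Whether reads of mitochondrial ribosomal RNA were counted under Lars2 was not tested.
Tars2 was called higher on the log scale alone (1.76), on 1 naive read and with a read ratio of 3.75 (0.664 to 149). Cars2 was called lower on the log scale alone (-0.81), with an edgeR adjusted p of 0.662. Fars2, Hars2, Iars2, Mars2 and Yars2 were called by neither test.

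**Figure D4:**
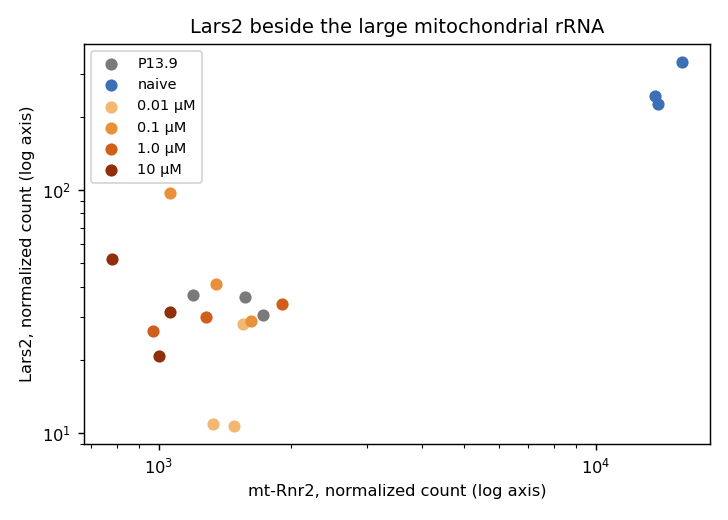
Lars2 against mt-Rnr2 in each of the 18 libraries, normalized counts on log axes, coloured by group. The 3 naive libraries stand apart at the upper right, with Lars2 at 225 or more and mt-Rnr2 at 13684 or more.

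The second comparison asked whether synthetase genes follow the peptide dose. In the fit over the 15 T cell libraries no member was called between 10 and 0.01 µM, where 8.15% of all genes were, although 3 had an unadjusted p below 0.05 (Lars2, Mars1 and Qars). None was called between 10 and 0.1 µM, against 0.0964% of all genes, between 10 and 1.0 µM, against 0.0826%, between 1.0 and 0.01 µM, against 4.30%, or along the dose slope, against 6.53%. Between 0.1 and 0.01 µM 1 member, Lars2, was called higher, against 5.59% of all genes (1.65 ± 0.43, limma adjusted p = 0.0397), with 29.0, 96.7 and 41.0 at 0.1 µM, against 10.9, 10.7 and 28.0 at 0.01 µM. The call was lost without 0.1 µM B, the library at 96.7, and without 0.1 µM C, 0.01 µM A or 0.01 µM B. Other tests called more members.
Limited to the 12 dose libraries, limma called 6 members between 10 and 0.01 µM, Vars, Kars, Mars1 and Qars higher and Rars and Tars lower, against 28.6% of all genes. edgeR on the 15 T cell libraries called 7 there, Vars, Kars, Mars1, Qars, Fars2 and Lars2 higher and Tars lower, against 34.8%.
The other dose calls of the 12-library fit were 4 between 1.0 and 0.01 µM, against 20.1% of all genes, 7 between 0.1 and 0.01 µM, against 25.8%, and 3 along the slope, against 24.5%. edgeR called 5, 6 and 4, against 22.3%, 24.0% and 29.3% of all genes.

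Vars had 7.20, 7.42 and 13.8 normalized counts at 0.01 µM and 18.6, 23.5 and 20.7 at 0.1 µM. It had 18.4, 19.1 and 22.7 at 1.0 µM and 19.8, 19.2 and 17.6 at 10 µM. The 3 libraries at 0.01 µM lay below the other 9, which overlapped each other. Its log2 change between 10 and 0.01 µM was 0.98 ± 0.21 in the 12-library fit (limma adjusted p = 0.00290) and had an adjusted p of 0.290 in the 15-library fit. P13.9 cells had 15.3, 20.1 and 12.4.
Kars had 23.9, 26.7 and 20.2 at 0.01 µM and 30.8, 34.0 and 22.4 at 0.1 µM. It had 29.9, 20.1 and 25.8 at 1.0 µM and 35.0, 45.2 and 40.4 at 10 µM. All 10 µM libraries lay above the other 9, by 0.74 ± 0.19 on the log2 scale over 0.01 µM (limma adjusted p = 0.00717, 12 libraries).
Mars1 had 23.4, 29.1 and 21.5 at 10 µM, above the 13.7, 16.7 and 12.1 at 0.01 µM, a log2 change of 0.76 ± 0.20 (limma adjusted p = 0.00851, 12 libraries). Its libraries at 0.1 and 1.0 µM ranged from 14.3 to 20.7, below those at 10 µM and overlapping those at 0.01 µM. Qars was at 14.1, 20.2 and 20.7 at 10 µM, against 10.0, 12.3 and 10.8 at 0.01 µM, and its highest library, 29.6, was at 0.1 µM.
Rars, the arginine enzyme, Tars, the threonine enzyme, and Nars were on average highest at 0.01 µM among the doses. Rars had 12.7, 16.1 and 12.5 at 10 µM, against 19.8, 21.1 and 20.6 at 0.01 µM, a log2 change of -0.55 ± 0.20 (limma adjusted p = 0.0476, 12 libraries), and its call was lost with the replicate letter as block. Tars had 24.0, 22.3 and 22.0 at 10 µM, against 34.0, 34.3 and 30.0, a change of -0.51 ± 0.16 (limma adjusted p = 0.0264, 12 libraries). In both genes the 3 libraries at 0.01 µM lay above those of every other dose. Nars averaged 60.2 ± 6.93 at 10 µM and 83.4 ± 6.28 at 0.01 µM, and in the 12-library fit was called between 0.1 and 0.01 µM (-0.84 ± 0.18, limma adjusted p = 0.00340). Between 10 and 0.01 µM the 12-library fit did not call Nars (-0.47, limma adjusted p = 0.0621), nor did the 15-library fit, edgeR or DESeq2. Nars was called lower there with array weights (-0.52, limma adjusted p = 0.00175) and in a fit of only those groups (-0.47, limma adjusted p = 0.00581).

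These 3 genes were also high in the P13.9 cells that the T cells were cultured with: Rars averaged 25.7 ± 5.11 in P13.9, against 13.8 ± 2.04 at 10 µM, Tars 39.8 ± 6.44 against 22.8 ± 1.08, and Nars 116 ± 12.2 against 60.2 ± 6.93. The P13.9 share was largest at 0.01 µM. The 15-library fit called none of these 3 genes between doses. With the share subtracted, it called Rars lower at 0.1 than at 0.01 µM under the second estimate alone (-1.20, limma adjusted p = 0.0472). Tars and Nars were called under neither estimate. The part of that share in the differences of Rars, Tars and Nars was not tested further. In the same fit with the share subtracted, Sars was called higher between 10 and 0.01 µM under both estimates (3.02, limma adjusted p = 0.0107, and 2.70, limma adjusted p = 0.0376). Without subtraction its change was 0.27 ± 0.25 and not called (limma adjusted p = 0.457, 12 libraries). The subtraction cut negative values off at no signal. A gene as high in P13.9 as Sars can reach that floor at 0.01 µM, and the floor's part in the Sars call was not tested. The labels' sample numbers place the 10 and 0.1 µM libraries in 1 run of numbers and the 1.0 and 0.01 µM libraries in another. Any effect of that order and the difference between the end doses cannot be told apart. Within a run, the 12-library fit called no member between 10 and 0.1 µM, against 1.75% of all genes. Between 1.0 and 0.01 µM, against 20.1%, it called Vars higher (1.06, limma adjusted p = 0.00233). Tars (-0.58, limma adjusted p = 0.0175), Lars (-0.64, limma adjusted p = 0.0287) and Tars2 (-1.05, limma adjusted p = 0.0436) were called lower.
Wars1, whose human counterpart is known to be induced by interferon gamma, had 10.2, 8.56 and 8.24 at 10 µM. At 0.01 µM it had 6.53, 5.56 and 6.41, with no overlap. No test called its log2 change of 0.48, with an SE of 0.31 in the 12-library fit (limma adjusted p = 0.270). In the 15-library fit the SE was 0.71 (limma adjusted p = 0.779). Against 0.01 µM its change was -0.58 at 0.1 µM and -0.35 at 1.0 µM (12 libraries), neither called. Of the 8 other interferon gamma response genes tested, 7 were called higher at 10 than at 0.01 µM, where 1.90% of all genes were called higher and 6.25% lower, among them Tap1 (1.40) and Igtp (1.95). Both were lower in P13.9 than at 10 µM (-2.49 and -3.41, limma), and the part of the P13.9 share in these differences was not tested.

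**Figure D5:**
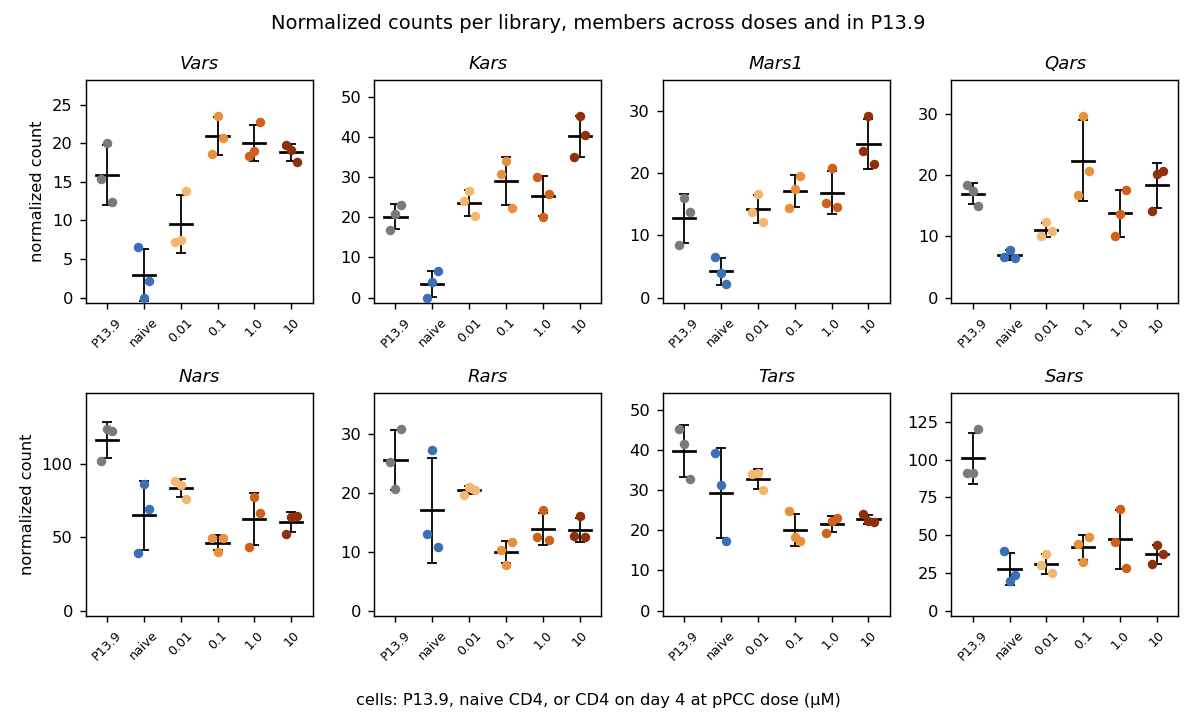
Normalized counts of 8 synthetase genes in every library (points), with group mean and SD (n = 3), in P13.9, naive CD4 cells and at each pPCC dose in µM; each panel has its own linear axis. Vars is lowest among the doses at 0.01 µM, Kars is highest at 10 µM, and Rars and Tars are highest among the doses at 0.01 µM and higher still, on average, in P13.9.

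The third comparison set the fibroblast line beside the T cells. Against naive cells 11 members were higher and 2 lower in P13.9 by both tests, where 25.0% and 22.3% of all 8179 genes were. The log scale called 12 higher and 5 lower, against 29.9% and 29.1% of all genes, and edgeR 15, against 49.9%. Gars had the largest called rise, at 67.5, 82.9 and 84.8 in P13.9, against 6.55, 11.7 and 10.8 in naive cells (2.92 ± 0.20, limma adjusted p = 7.94e-10). Sars, with the highest P13.9 level of the members after Nars, was at 91.3, 90.9 and 120 against 39.3, 19.5 and 23.8 (1.88 ± 0.30, limma adjusted p = 2.98e-05). Neither gene overlapped between the groups. Lars2 and Cars2 were the members lower by both tests.
Against T cells at 10 µM, Sars (1.42 ± 0.30), Nars (0.94 ± 0.25) and Rars (0.84 ± 0.29) were higher in P13.9 by both tests, and Mars1 (-0.94 ± 0.32), Hars (-0.98 ± 0.28), Fars2 (-1.36 ± 0.53) and Cars2 (-1.54 ± 0.42) lower, where 24.3% and 15.6% of all genes were. The split depends on the scaling: limma called 6 members higher and 4 lower, against 26.4% and 15.6% of all genes, and edgeR 12, 3 higher and 9 lower, against 58.3%. The median log2 change of all genes was 0.22 in limma and -0.04 in edgeR. Without P13.9 1 or without 10 µM B, limma called 5 members, and 6 without P13.9 3, 10 µM A or 10 µM C. The calls of Hars, Cars2 and Nars held in every alternative that tested them. That of Fars2 was lost without any 1 of the 6 libraries (limma adjusted p up to 0.160 over its alternatives), that of Mars1 without P13.9 1, 10 µM A or 10 µM B (up to 0.122), that of Rars without P13.9 1, P13.9 3, 10 µM A or 10 µM C or with quantile scaling, and that of Sars with either subtraction of the share (up to 0.0878). Sars had 30.5, 43.2 and 37.7 at 10 µM, well below P13.9. Hars, the cytosolic histidine enzyme, had 4.60, 6.02 and 6.19 in P13.9, against 13.0, 13.7 and 9.58 at 10 µM, with no overlap.

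Other genes of the pathway were read from lists. Of all genes, limma called 29.0% higher and 34.3% lower in activated cells, edgeR called 53.4%, and 24.3% were higher and 23.2% lower by both. Of the 3 scaffold genes, Aimp2 rose in activated cells by both tests (2.05 ± 0.55, limma adjusted p = 0.00456), with naive values of 19.7, 0 and 2.17 from 4 reads. Aimp1 was at 0.53 and Eef1e1 at 0.09, and edgeR called Aimp1 higher (1.22). Of 19 tested genes of tRNA maturation and export, 10 rose and 2 fell on the log scale, with a median of 0.79 against -0.02 over all genes, and edgeR called 11 higher and none lower. Among them Hsd17b10, a subunit of mitochondrial RNase P, rose by 1.30 and Xpot, the tRNA exporter, by 2.36 (limma adjusted p = 0.00136), each on 5 naive reads. Of the 13 RNA polymerase III genes, 4 were higher and 5 lower in limma, shares near those of all genes (edgeR 3 and 2). Bdp1, a subunit of its initiation factor, was at 1.82 ± 0.59 at 10 µM, against 32.2 ± 0.82 in naive cells. Of 6 tested cytosolic elongation factor genes, 4 rose by both tests, led by Eif5a (1.68) and Eef1d (1.38).
Of 22 tested genes of the amino acid response, 12 rose and 7 fell on the log scale (edgeR 14 and 5). Slc7a5, the large neutral amino acid transporter, averaged 98.6 ± 8.32 at 10 µM, against 36.2 ± 5.12 in naive cells, and rose by 1.15 ± 0.14 over the 4 doses (limma adjusted p = 2.92e-06). Psat1, of serine synthesis, rose by 2.41 ± 0.34 (limma adjusted p = 2.08e-05). Slc38a2, a neutral amino acid transporter, fell by 3.33 on the log2 scale, to 19.2 ± 3.37 at 10 µM, against 254 ± 58.1 in naive cells. The stress genes Ppp1r15a (-4.17) and Ddit3 (-2.67) fell too, as did Atf4 itself, at 103 ± 1.88 at 10 µM, against 311 ± 130 in naive cells (-1.56 ± 0.23 over the 4 doses, limma adjusted p = 3.29e-05). Myc averaged 6.37 ± 0.85 at 10 µM, against 0, 7.81 and 0 in the naive libraries, and Eif2ak4, the kinase that senses uncharged tRNA, 1.53 ± 0.73 against 0, 3.90 and 2.17, each on 2 naive reads, so no change is given.
Between 10 and 0.01 µM none of the scaffold, tRNA maturation or RNA polymerase III genes was called on the log scale, while edgeR called 4 tRNA maturation genes higher, and 2 RNA polymerase III genes higher and 2 lower, against 34.8% of all genes. It also called 5 of 6 elongation factor genes higher, and 9 amino acid response genes higher and 3 lower. On the log scale Eef2 (0.48) and Eef1g (1.08) rose, and Atf5 (-1.18) and Slc38a2 (-0.82) fell. Atf5 averaged 223 ± 1.63 in P13.9, 15.7 ± 1.95 at 10 µM and 37.0 ± 6.85 at 0.01 µM, where the P13.9 share was largest. The part of that share in these differences was not tested.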

How the data were processed

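Messenger RNA 3′ ends were measured in 18 libraries, grouped by sample title. The authors deposited 1 signal value per gene and library, a read count divided by 1 size factor per library; the deposited table is named for the median of ratios. Of upstream tools, the submitters' processing notes list STAR 2.6.1d and HTSeq 0.9.1, then FastQC 0.11.8 and DESeq2, with the mm10 build. Neither annotation nor strand setting is stated. Within a tolerance of 1e-04, 99.9996% of values were whole reads, and these reads were recovered. The 110 features without a name, 12.4% to 15.6% of naive reads and 1.94% to 5.36% elsewhere, were left out.

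limma 3.58.1 in R 4.3.3 (lmFit, eBayes with trend) was fitted to log2(value + 1), a scale that can understate or overstate changes of low genes. Tested were genes at 5 or more in at least 3 of 15 T cell libraries (7264 genes, and 8179 in the 18-library fit for P13.9). Benjamini-Hochberg adjustment ran over every gene in a fit. edgeR 4.0.16 (TMM, quasi-likelihood) and DESeq2 1.42.0 ran on the recovered reads. limma and edgeR were tested on simulated counts. Leading with genes that both limma and edgeR called was chosen after that test. Other alternatives were another pseudocount, filters, quantile scaling, array weights, subtraction of the P13.9 share, the replicate letter as block and leaving out each library. The P13.9 share is the median, over 4 fibroblast genes, of a library's value relative to the P13.9 mean; a second estimate used 206 genes without a naive read. Read ratios divide reads by summed depth, with exact binomial intervals.

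All members may be named; of each other list, the 6 genes with the smallest adjusted p in a comparison, and Atf4, Myc and Eif2ak4. Members and lists were chosen with earlier results of these data known. The fit limited to the 12 dose libraries was added after seeing the data. Promoters are from RefSeq (GRCm38.p6): 36 members matched by symbol and Wars1 by synonym. Sequences from chromosome 18 were not used.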

Additional observations from a re-analysis of the deposited data

How the results depend on the processing

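Few naive reads limit every comparison with naive cells: 8 of the 37 members had 1 to 3 naive reads and 3 had none. Of the 15 genes called in activated against naive cells, Eprs, Gars, Iars, Kars and Lars2 were called under all 26 alternatives and Farsb, Mars1 and Vars under the 25 that tested them, and no called gene changed sign under any. That count of 15 fell to 9 with array weights and 5 with a mean of at least 20, and leaving out 1 library gave 14 to 16. The count of 11 called alike at all 4 doses was 7 with array weights, 5 in fits of only the groups compared, 5 with a mean of at least 20 and 7 with the P13.9 share by the fibroblast list subtracted, and 8 to 11 without 1 library. For P13.9 against naive cells, 17 became 11, 9 and 6 under array weights, only the groups compared and a mean of at least 20 (15 to 19 without 1 library). For P13.9 against 10 µM, 10 became 5 with a mean of at least 20 and 5 to 7 without 1 library, 5 without P13.9 1 or 10 µM B. The filter on a mean of at least 20 took genes out of the test. In these comparisons every called gene that passed it was still called.

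The dose counts moved most, and the cause was not tested. Between 10 and 0.01 µM, 0 became 14 with array weights, 10 with only the groups compared, 8 in DESeq2, 7 in edgeR, 6 in the 12 dose libraries (added after seeing the data), 1 with quantile scaling, and 2 or 1 with the P13.9 share subtracted by the fibroblast list or by genes without a naive read. Between 1.0 and 0.01 µM, 0 became 8, 3, 2, 5 and 4 in the same order, and 1 with either subtraction. Between 0.1 and 0.01 µM, 1 became 8, 7, 6, 6 and 7, 5 with quantile scaling, 2 with a mean of at least 20, 0 without a filter, 3 or 4 with the share subtracted, and 0 to 1 without 1 library (0 without 0.01 µM A or B or 0.1 µM B or C). Along the slope, 0 became 11, 3, 4, 4 and 3, and 1 with the fibroblast-list subtraction. Between 10 and 1.0 µM DESeq2 called 1, Kars. Leaving out 1 library kept the other dose counts at 0.

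The letters A to C did not pair the samples: same-letter deviations correlated at -0.197 to 0.199 (median -0.03, 18 pairs), other pairs at a median of 0.03. With the letter as a replicate block over the 12 dose libraries, the counts were 6 between 10 and 0.01 µM (Rars no longer called, Lars2 called at 1.07, limma adjusted p = 0.0495), 3 between 1.0 and 0.01 µM, 7 between 0.1 and 0.01 µM and 3 along the slope. No such fit was possible against naive or P13.9 cells, whose columns carry other numbers.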
